A study of Mus musculus with 4 samples.

Results

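The mouse genes Bahcc1, Padi2, Nes, Ttc21b, Gfra1, Lhfpl4 and Znrd1, stood lower in a lymphoma cell line that resists the drug JQ1 than in a line that responds to it. They were listed by name from a table of 16591 genes, and all 7 genes were found there and passed the filter on low counts that left 11945 tested genes. The list was chosen by the lower counts of these genes in the resistant than in the sensitive libraries, so the size and direction of their differences are described here without a test. Measurements that did not choose them, namely the genes beside them on the chromosomes and their relatives in gene families and complexes, were tested. The lists of relatives were, however, drawn up with earlier results of these data known.

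JQ1 blocks the bromodomains of BET proteins, which bind acetylated histones and help RNA polymerase to leave promoters. Eμ-Myc cells are mouse B-lineage lymphoma cells in which an immunoglobulin heavy-chain enhancer drives Myc. The sensitive group was the JQ1S line and the resistant group the JQ1R line, both Eμ-Myc on a C57BL/6 background and both early-passage cells kept in the same medium, with 2 libraries per line and no drug named in the labels at harvest. Each group is a single line, and resistance and whatever else separates the 2 lines cannot be told apart. Nothing in the labels says that the libraries of a line came from separate cultures, and p-values then measure only the spread between these libraries.

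The libraries held 10346007 to 13048103 counts, so 1 count was worth 0.0771 to 0.0972 CPM (library-scaled counts with TMM factors applied). All 10 B-cell markers were in the table, with a summed level of 3580 to 3671 CPM in the sensitive and 3814 to 3935 CPM in the resistant libraries, while 0 of 7 fibroblast markers were in the table, and T-cell and erythroid markers summed to at most 0.539 CPM. Myeloid markers summed to 1.17 to 1.46 CPM in the sensitive and 1.94 to 2.29 CPM in the resistant line, and endothelial markers to 88.6 to 100.3 CPM over the 4 libraries, nearly all of it Pecam1. Several of the 7 genes are best known from the nervous system. Of 12 markers of neural progenitors, neurons and glia, 4 were in the table, summing to 10.3 and 11.1 CPM in the sensitive and 7.41 and 9.68 CPM in the resistant libraries, and Sox2, Pax6, Rbfox3, Snap25, Syt1, Gfap, S100b and Sox10 were absent from it. Among the tested neural markers, Mbp was lower in resistant cells (log2 change -1.31, edgeR adjusted p = 8.53e-04), and Tubb3 (0.65) did not pass the test. The part of this marker list in the levels of the 7 genes was not tested.

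The 7 genes belong to unrelated systems. Bahcc1 encodes a large chromatin protein with a BAH domain, a fold that reads histone modifications, and Padi2 a calcium-dependent enzyme that turns arginine in histones and filament proteins into citrulline. Nes encodes nestin, an intermediate filament protein of neural stem cells and other progenitors, and Ttc21b a subunit of the intraflagellar transport A complex, which carries cargo back from the tip of the primary cilium. Gfra1 encodes the membrane-anchored receptor that binds GDNF and presents it to the kinase RET, Lhfpl4 a membrane protein that holds GABA-A receptors at inhibitory synapses, and Znrd1 a small zinc-ribbon subunit of RNA polymerase I, the enzyme of ribosomal RNA synthesis.

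Promoter sequences of 4 genes are shown because they include the largest falls and the loci where a neighbouring gene starts close by. RefSeq promoter windows (GRCm38.p6) were found for 7 of 7 genes, with 2 windows for Znrd1. The RefSeq starts of Gfra1, Znrd1, Nes and Padi2 lie inside the annotated GENCODE gene bodies, so their windows are not at the outermost start. The Gfra1 window lies wholly within the gene body, and those of Znrd1, Nes and Padi2 run partly into it. Printed below are the 250 bases before the start of Bahcc1 (chr11:120232697-120232946, plus strand) and of Lhfpl4 (chr6:113195385-113195634, minus strand), the genes with the largest falls, and of Ttc21b (chr2:66256618-66256867, minus strand), which like Bahcc1 holds more than 1 CCAAT box. For Znrd1 only the 32 bases that separate it from its head-to-head neighbour Znrd1as are shown (chr17:36958560-36958591, minus strand). Capitals mark CCAAT or its reverse complement ATTGG, and GGGCGG or its reverse complement CCGCCC.
Bahcc1: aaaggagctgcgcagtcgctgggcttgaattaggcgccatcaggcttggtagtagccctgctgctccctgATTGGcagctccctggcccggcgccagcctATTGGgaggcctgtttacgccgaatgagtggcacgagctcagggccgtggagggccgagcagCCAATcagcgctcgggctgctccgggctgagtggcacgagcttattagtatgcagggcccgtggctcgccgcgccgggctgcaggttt
Lhfpl4: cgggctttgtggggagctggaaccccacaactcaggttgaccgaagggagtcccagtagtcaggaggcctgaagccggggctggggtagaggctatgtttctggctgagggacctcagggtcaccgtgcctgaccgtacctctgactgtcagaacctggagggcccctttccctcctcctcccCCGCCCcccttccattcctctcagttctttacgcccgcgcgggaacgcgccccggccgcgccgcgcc
Ttc21b: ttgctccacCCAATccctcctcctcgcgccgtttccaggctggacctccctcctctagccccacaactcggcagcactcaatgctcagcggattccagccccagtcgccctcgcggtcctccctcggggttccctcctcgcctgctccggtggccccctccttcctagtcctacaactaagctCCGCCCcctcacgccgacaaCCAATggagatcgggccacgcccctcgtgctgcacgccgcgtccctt
Znrd1: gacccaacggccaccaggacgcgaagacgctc

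The windows of the 7 genes held 10 to 24 CG pairs in 250 bases, against a median of 6 over 32851 RefSeq windows. That placed them at the 62.2 to 88.0 percentile of all windows. The windows for comparison, here and for the motifs, were not limited to genes expressed in these cells. Both strands were searched for 7 motifs. The Bahcc1 window holds 3 CCAAT boxes, that of Ttc21b 2, and those of Padi2, Gfra1 and Znrd1 1 each, and 33.8% of all windows hold at least 1. The Gfra1 match lies inside the annotated body of Gfra1. That of Znrd1, the same site in both windows, lies inside the body of Znrd1as. The GC box GGGCGG was found at Nes (2), Padi2 (3), Ttc21b (1) and Lhfpl4 (1), against 32.7% of all windows. The E-box CACGTG, the motif bound by MYC with MAX, was in 0 of these windows (6.02% of all windows). TATAAA (12.4%), the ETS motif CCGGAAG (6.91%) and the palindromic EBF (0.779%) and NRF1 (0.782%) motifs were also not found there. No CCAAT match overlapped a GGGCGG match in the printed stretches.

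The gene with the largest fall was Bahcc1, on chromosome 11 at 120232947 to 120292296 (GRCm38, plus strand). The sensitive libraries gave 790 and 715 counts (65.2 ± 6.08 CPM, mean ± SD, n = 2) and the resistant libraries 117 and 131 (10.9 ± 0.22 CPM). The resistant libraries held 16.7% of the sensitive level, a log2 change of -2.58 ± 0.10 (SE), and the groups did not overlap. Among all tested genes this was the 14th lowest log2 change. Padi2, the other gene whose product acts on chromatin, lies on chromosome 4 at 140906344 to 140952586. It was counted 1856 and 1450 times in sensitive and 750 and 708 times in resistant cells, which is 143, 141, 68.6 and 59.6 CPM. Both sensitive libraries stood above both resistant libraries, and 45.2% of the level remained (log2 change -1.15 ± 0.07). Per kilobase of annotated exon, Padi2 was the most abundant of the 7 genes in the sensitive line, at 28.3 ± 0.30 CPM per kb (mean ± SD, n = 2).

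The cytoskeleton and cilium are represented by 2 genes. Nes (chromosome 3, 87971078 to 87980451) gave 465 and 442 counts in the sensitive line (35.8 and 43.0 CPM) against 145 and 143 in the resistant line (13.3 and 12.0 CPM). The groups were apart, 32.1% of the level remained, and the log2 change was -1.63 ± 0.11. Ttc21b (chromosome 2, 66184327 to 66256617, minus strand) had the closest replicates of the 7, at 13.9 and 13.7 CPM against 5.31 and 5.39 CPM, from 180, 141, 58 and 64 counts. Its level fell to 38.8% without overlap of the groups (log2 change -1.36 ± 0.15).

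Both genes of membrane receptors and their partners were low in resistant cells, Lhfpl4 with the fewest counts. Gfra1 (chromosome 19, 58235604 to 58455909, minus strand) gave 478 and 397 counts in the sensitive line (36.8 and 38.6 CPM) against 216 and 194 in the resistant line (19.8 and 16.3 CPM). It kept 47.9% of its level (log2 change -1.06 ± 0.10), with no overlap between the lines. Lhfpl4 (chromosome 6, 113168090 to 113195384, minus strand) had 90 and 60 counts in sensitive cells and 12 and 14 in resistant cells, or 6.94, 5.83, 1.10 and 1.18 CPM. Exact Poisson 95% intervals, which cover counting error only, run from 6.20 to 21.0 counts and from 7.65 to 23.5 counts in the resistant libraries and from 45.8 counts upward in the lower sensitive library. The groups and these intervals were apart, which the choice of the gene favoured, so this is no test. The level remaining was 17.8%, and the log2 change of -2.49 ± 0.26 was the least precise of the 7.

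Znrd1, the polymerase subunit, lies on chromosome 17 at 36954356 to 36958559 (minus strand) and is the shortest of the 7, with 819 exonic bases. It had 275 and 182 counts in sensitive and 118 and 123 in resistant cells, or 21.2, 17.7, 10.8 and 10.4 CPM. The sensitive libraries were unequal but both stood above the resistant libraries. The level remaining was 54.4%, the highest share of the 7, and the log2 change of -0.89 ± 0.13 was the smallest fall. Per kilobase of exon it was the second most abundant of the 7 in sensitive cells, at 23.7 ± 3.03 CPM per kb, and level with Padi2 in resistant cells, at 12.9 ± 0.39 against 12.8 ± 1.28 CPM per kb.

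**Figure D1:**
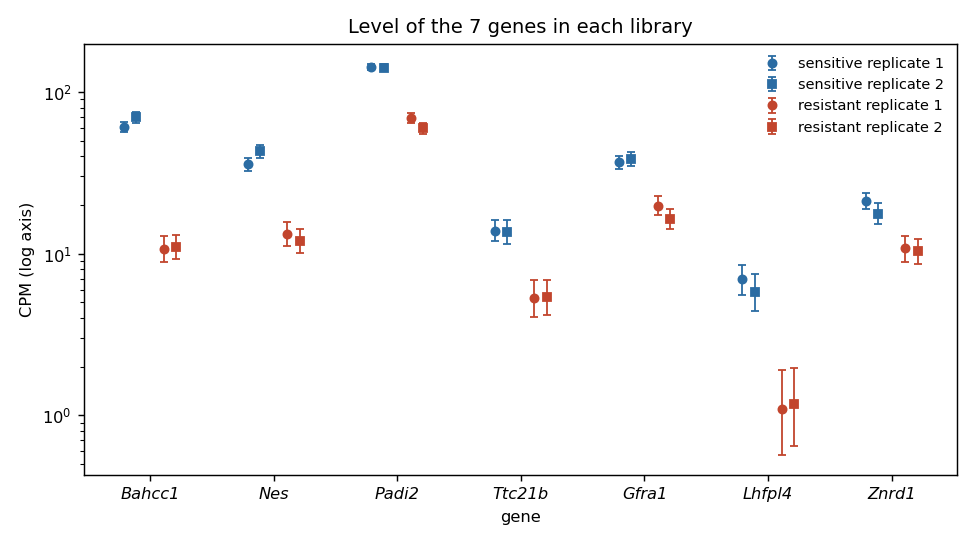
CPM on a log axis (vertical) of the 7 genes (horizontal) in each library, with circles for replicate 1, squares for replicate 2, blue for the sensitive and red for the resistant line, and bars for exact Poisson 95% intervals of the count. For each gene both red points lie below both blue points, from Lhfpl4 at 1.10 and 1.18 CPM to Padi2 at 68.6 and 59.6 CPM in resistant cells.

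The genes were lowered rather than switched off, since each had counts in both resistant libraries. In the sensitive line the order per kilobase of exon was Padi2, Znrd1, Gfra1 (6.89 ± 0.22), Nes (6.14 ± 0.78), Bahcc1 (5.86 ± 0.55), Ttc21b (1.49 ± 0.01) and Lhfpl4 (1.10 ± 0.13 CPM per kb). Nes lay within its spread of Gfra1 and of Bahcc1 there, while Gfra1 and Bahcc1 were apart. In the resistant line these 3 genes stood farther apart relative to their level, at 3.30 ± 0.44 for Gfra1, 1.97 ± 0.14 for Nes and 0.978 ± 0.02 CPM per kb for Bahcc1. On this scale Bahcc1 went from the 45.1 to the 13.4 percentile of tested genes and Lhfpl4 from the 15.3 to the 1.59 percentile.

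For each gene both sensitive libraries stood above both resistant libraries, a pattern that the choice of the list favoured. Bahcc1, Nes and Gfra1 were higher in sensitive replicate 2 and the other 4 genes in sensitive replicate 1. The log2 difference between the libraries of a line was at most 0.28 in size (Gfra1 in resistant cells), whereas the gap from the lowest sensitive to the highest resistant library ranged from 0.71 for Znrd1 to 2.47 for Bahcc1. The median log2 change was -1.36 over the 7 genes and 0.00331 over all tested genes, and 6 of 7 had a log2 change of -1 or lower, as did 0.67% of tested genes. Non-overlap downward, found in 7 of 7, was found in 23.2% of tested genes. The list was drawn from this contrast, so nothing is read from these gaps and shares.

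**Figure D2:**
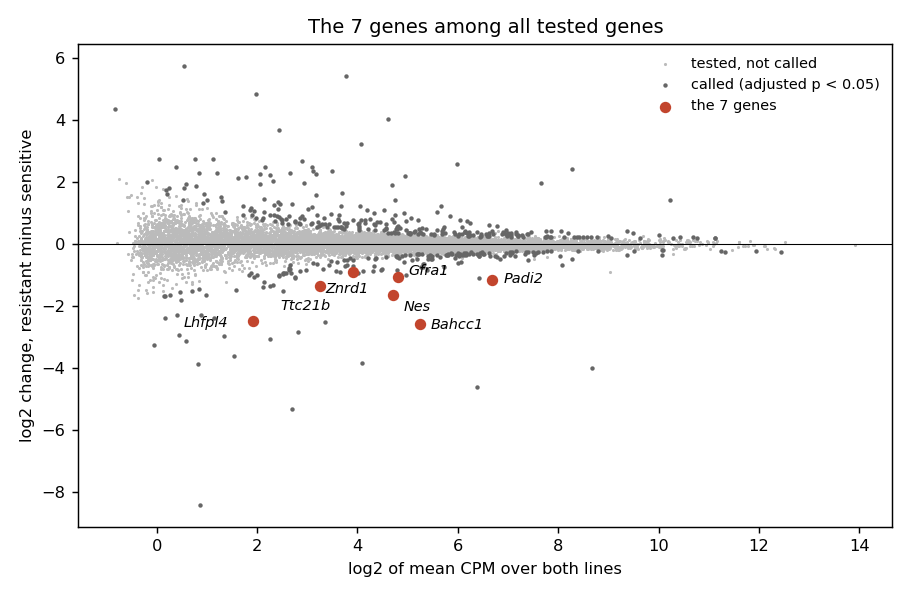
Log2 change, resistant minus sensitive (vertical), against the log2 of mean CPM (horizontal) for the 11945 tested genes, with called genes in dark grey, other genes in light grey and the 7 genes in red. The red points lie between -0.89 (Znrd1) and -2.58 (Bahcc1).

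Gene models overlap at some of these loci, and the strand setting of the counting is not given in the sources used here. Without strand, reads of a gene and of its antisense partner cannot be told apart. The antisense gene Gm16277 shares 7.60% of the exonic bases of Gfra1 and has no row in the table, and Gm13031 shares 2.97% of those of Padi2 and had at most 3 counts in any library. Gm11772, antisense within Bahcc1 and sharing 0 exonic bases with it, had 12 and 2 counts in sensitive and 0 and 0 in resistant cells.

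The genes around each of the 7 were examined next, within 1 Mb of the gene body on either side. The 7 genes lie on 7 chromosomes. Of 160 tested neighbours, 3 rose and 2 fell in edgeR's quasi-likelihood test at an adjusted p under 0.05, which is 3.12%. Of all tested genes 3.73% were called, 2.2% higher and 1.52% lower. The median log2 change of the neighbours was -0.01. The neighbours of the 7 genes as a whole were thus called about as often as any tested gene. Leaving out either sensitive library gave 14 called neighbours of 164 (8.54%), against 11.3% of all tested genes without sensitive replicate 1 and 9.68% without the other, where the lone sensitive library is assumed to vary like the resistant pair.

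All 5 called neighbours lie around Bahcc1, among 55 tested (9.09%). The nearest is 2900052L18Rik, a processed transcript that starts 1362 bases from Bahcc1 on the opposite strand and runs away from it (chromosome 11, 120229802 to 120231585). It had 36 and 35 counts in sensitive and 8 and 6 in resistant cells, or 2.77, 3.40, 0.732 and 0.505 CPM. It fell by 2.30 on the log2 scale (SE 0.36, adjusted p = 9.48e-04, edgeR), close in size to the fall of Bahcc1, and shares no annotated exon with it. Actg1, the gene of gamma-actin, lies 53394 bases beyond the other end of Bahcc1 and fell by 0.34 on the log2 scale (745 ± 17.7 CPM against 586 ± 11.5 CPM, edgeR adjusted p = 8.06e-04).

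The remaining called neighbours of Bahcc1 rose and lie farther away. They are the lactate transporter gene Slc16a3 (log2 change 1.42, 656184 bases away), the ubiquitin ligase gene Rnf213 (1.60, 745529 bases) and Narf (0.48, 944957 bases). Slc16a3 stood at 9.40 and 20.5 CPM in the sensitive libraries. Leaving out sensitive replicate 1 gave 0.91 and leaving out sensitive replicate 2 gave 2.04, and the DESeq2 adjusted p was 0.288. Genes of both directions therefore lie within 1 Mb of Bahcc1, and the median log2 change of its 55 tested neighbours was 0.01. The count for Bahcc1 was 8 of 56 (14.3%) when 1 sensitive library, either of them, was left out, in the same fits that called 11.3% and 9.68% of all tested genes.

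Of 105 tested neighbours around the other 6 genes, 18 had an unadjusted p under 0.05 in edgeR. The share of all tested genes at that level is not given here, so nothing is read from this number. After adjustment 0 of the 105 passed in edgeR, and limma-voom and DESeq2 also called 0. The count was 6 of 108 (5.56%, below the 11.3% and 9.68% of all tested genes) when either sensitive library was left out and 0 when either resistant library was. Nearest to Znrd1 is Znrd1as, whose start lies 33 bases from that of Znrd1 on the opposite strand, the interval printed above. Znrd1as had 15 and 13 counts in sensitive and 2 and 6 in resistant cells, apart in the direction of Znrd1 (log2 change -1.75 ± 0.53, edgeR adjusted p = 0.0862). Its log2 change was -1.24 without resistant replicate 1 and -2.65 without resistant replicate 2. On the other side, 2615 bases away, Ppp1r11, which encodes an inhibitor of protein phosphatase 1, was at 25.5 ± 1.24 and 21.9 ± 0.75 CPM (-0.22, adjusted p = 0.276, edgeR).

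Znrd1 sits in the class I part of the mouse MHC, and its surroundings were mostly silent. Of 78 protein-coding genes within 1 Mb, among them many olfactory receptor genes and class I genes of the H2-M10 group, 13 were tested and 62 were absent from the table. The class I genes H2-T22 (log2 change 0.46), H2-M3 (0.82), H2-T24 (0.27) and H2-T23 (0.13) had positive values that did not pass the test. Gm11127, a tested protein-coding gene that lies among the H2-T genes, had a negative value (-0.68) and did not pass it. The ubiquitin ligase genes Trim26 (0.05) and Trim39 (0.01) did not pass it either. Ttc21b is more isolated still. It lies beside the sodium channel genes Scn1a, Scn3a, Scn7a and Scn9a, these 4 absent from the table, and Scn2a, which had at most 2 counts in any library, and Cobll1, 944924 bases away, was the only tested neighbour (log2 change -0.04).

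Padi2 lies in the cluster of arginine deiminase genes. Padi1, Padi3 and Padi4 had at most 4 counts in any library and were not tested, and Padi6 was absent from the table. Sdhb, a subunit of succinate dehydrogenase that begins 8617 bases beyond Padi2, had 146 ± 6.09 CPM in the JQ1S and 150 ± 0.65 CPM in the JQ1R libraries (log2 change 0.04), and Rcc2 on the other side had a log2 change of -0.04. At Nes the flanking genes Isg20l2 (-0.16) and Gpatch4 (-0.06) did not pass the test, nor did Setd5 (-0.06) and Mtmr14 (-0.01) beside Lhfpl4, or Atrnl1 (0.12) and Hspa12a (-0.08) beside Gfra1. Adjusted p-values of these 8 flanking genes in edgeR were 0.194 or more. Isg20l2 was called lower without sensitive replicate 2 (-0.21).

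**Figure D3:**
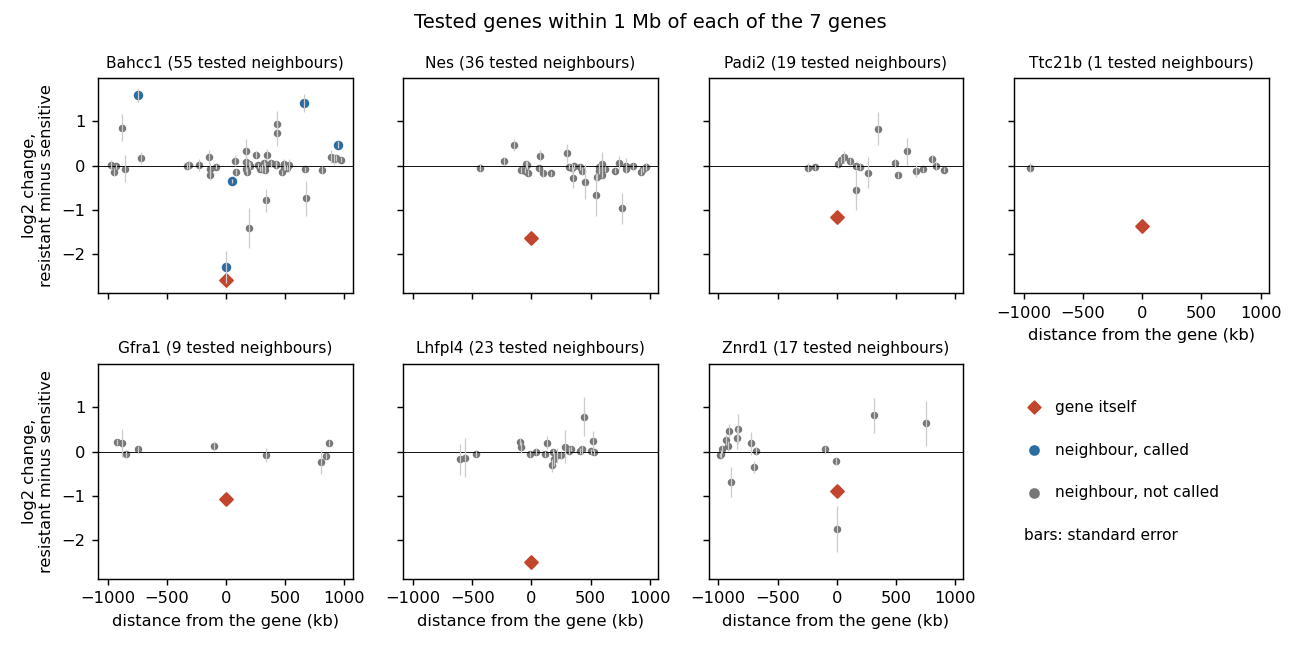
Log2 change, resistant minus sensitive (vertical), of tested genes within 1 Mb against their distance from the gene body in kb (horizontal), 1 panel per gene, with a red diamond for the gene itself, blue for called neighbours, grey for others and bars for standard errors. Beside the Bahcc1 diamond lies 2900052L18Rik at -2.30, and below the Znrd1 diamond lies Znrd1as at -1.75, which was not called.

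Relatives and partners of the 7 genes were read from lists of gene families and complexes. Across 12 lists, 78 genes other than the 7 were tested, and 1 rose and 0 fell in edgeR (1.28%, against 3.73% of all tested genes), with 12 at an unadjusted p under 0.05. The share of all tested genes at that unadjusted level is not given here. Nothing is therefore read from this number or from those of single lists below. The median log2 change of these relatives was -0.01. DESeq2 called 0 of them. When 1 library is left out, a call rests on the spread of the other line alone, here and in the lists below. Leaving out sensitive replicate 1 gave 8 calls (10.3%, against 11.3% of all tested genes) and leaving out sensitive replicate 2 gave 9 (11.5%, against 9.68%). Leaving out resistant replicate 2 gave 0.

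Chromatin relatives of Bahcc1 did not pass the test. Of 10 other BAH-domain genes, 0 were called in edgeR or DESeq2, with 1 at an unadjusted p under 0.05, and log2 changes ran from -0.19 (Orc1) to 0.08 (Mta3). Tnrc18, the closest relative of Bahcc1, had 1054 and 976 counts in sensitive and 889 and 1023 in resistant cells (log2 change -0.07, edgeR adjusted p = 0.716). Among 11 genes of PRC2, the complex that methylates lysine on histone H3, 0 were called in edgeR or DESeq2, with 1 at an unadjusted p under 0.05 (Eed, -0.20, adjusted p = 0.120). Without sensitive replicate 2, Eed (-0.24) and Orc1 (-0.26) were called lower.

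Among the 5 tested genes of intermediate filaments and nuclear lamins apart from Nes, all had negative log2 changes and 0 passed the test in edgeR or DESeq2, with 2 at an unadjusted p under 0.05. Vim, the gene of vimentin, with which nestin forms filaments, gave 337 and 405 CPM in the JQ1S against 333 and 304 CPM in the JQ1R libraries (log2 change -0.22, edgeR adjusted p = 0.138). Its sensitive libraries were unequal, and without sensitive replicate 1 it was called lower (-0.35, adjusted p = 6.71e-11, edgeR). Krt18, at 13, 16, 7 and 3 counts, had a log2 change of -1.49 (edgeR adjusted p = 0.144), and -2.26 without resistant replicate 1.

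Of the ciliary transport genes besides Ttc21b, 1 motor gene was called. Of 5 tested partners in the intraflagellar transport A complex and its adaptor, 0 were called in edgeR or DESeq2, with 0 at an unadjusted p under 0.05, and Ift122 (0.34) and Ift140 (0.20) were positive. Of 16 genes of the intraflagellar transport B complex, 0 were called in edgeR or DESeq2, with 3 at an unadjusted p under 0.05. They spanned -0.67 (Ift81) to 0.69 (Ttc30a1). Ift122 (0.55), Ift140 (0.33) and Ift172 (0.56) were called higher without sensitive replicate 2. Kif3a, a motor subunit of kinesin-2 that moves cargo outward, rose from 5.04 ± 0.15 to 8.53 ± 0.80 CPM (log2 change 0.76 ± 0.17, adjusted p = 0.0159, edgeR), while its partner Kif3b had a log2 change of -0.01. The call of Kif3a was lost with DESeq2 (adjusted p = 0.288) and without resistant replicate 2 (log2 change 0.66, edgeR adjusted p = 0.152).

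Signalling partners of the membrane genes were scarce. Ret, the kinase that GFRA1 works with, had at most 3 counts in any library, and the ligand gene Gdnf was absent from the table, whereas Nrtn, the gene of the ligand neurturin, had 3 to 9 counts. Gfra2, the receptor of neurturin, was the only other tested gene of this list, with 51 and 46 counts in sensitive and 28 and 28 in resistant cells. Its log2 change was -0.76 ± 0.23 (edgeR adjusted p = 0.0902). The other 5 LHFPL family genes were absent from the table, as were the 16 listed GABA-A receptor subunit genes. The synaptic partners Nlgn2 (-0.37, edgeR adjusted p = 0.144) and Gphn (0.08) were expressed, and without sensitive replicate 1 Nlgn2 was called lower (-0.54).

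Other genes of RNA polymerase I were not called lower with Znrd1. Of 19 subunits and factors, 0 were called in edgeR or DESeq2, with 1 at an unadjusted p under 0.05 (Polr1e, -0.22), and the median log2 change was -0.05. The catalytic subunit gene Polr1a stood at -0.09 and Polr1b at -0.05. Without sensitive replicate 2, Polr1e (-0.26) and Rrn3 (-0.18) were called lower. Genes with a zinc ribbon like that of Znrd1 did not pass the test either, with Polr2i at -0.30, Polr3k at 0.09, Tcea1 at 0.06 and Tcea2 at 0.26, and 0 of these 4 called in edgeR or DESeq2 (1 at an unadjusted p under 0.05).

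**Figure D4:**
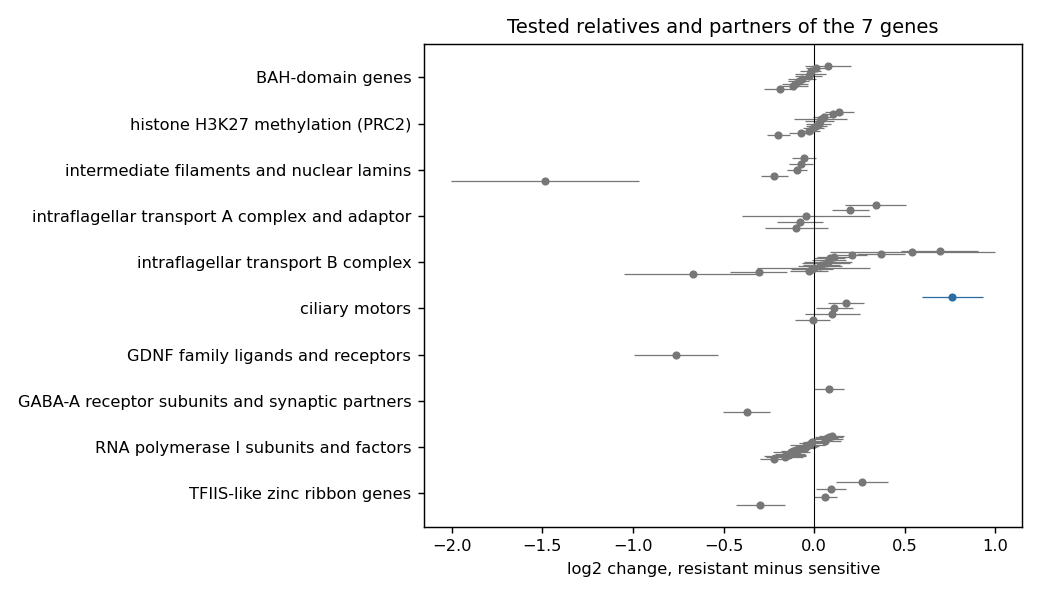
Log2 change, resistant minus sensitive (horizontal), with standard error, of each tested relative or partner of the 7 genes, 1 row for each of the 10 lists with a tested gene (vertical), blue where called and grey where not. Kif3a, at 0.76 in the row of ciliary motors, is the called gene.

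The genes with the most similar profiles were found by the Euclidean distance between log2 CPM values over the 4 libraries, each centred on its mean. For Bahcc1 they were the transcription factor gene Sox13 (distance 0.134), the fatty acid oxidation gene Hadh (0.183) and the kinase gene Cdk18 (0.212). Sox13 stood at 16.8, 18.3, 2.84 and 3.20 CPM in sensitive replicates 1 and 2 and resistant replicates 1 and 2. Lhfpl4 lay nearest to Bcl2l2, an inhibitor of apoptosis (0.190), and then to Sox13 and Cdk18. Bcl2l2 stood at only 0.183 and 0.168 CPM in resistant replicates 1 and 2, with a log2 change of -3.25. At such low levels the distance depends on the prior count used for log2 CPM. The nearest to Padi2 were Ttyh2 (0.0798) and the recombinase gene Rag1 (0.133), and those nearest to Gfra1 were Slc27a1 (0.152), Ccdc88a and Ttyh2 (0.166). Ttc21b was nearest to Lgr6 (0.169), Hsd17b13 (0.181) and Sec16b (0.187), Nes to Mfsd6 (0.278), Lgr6 (0.324) and Fam129b (0.363), and Znrd1 to Lingo3 (0.0909), Slc30a4 (0.107) and Grip1 (0.136). Within the 7, the closest pair was Padi2 and Gfra1 (0.117) and the farthest Bahcc1 and Znrd1 (1.73). With 4 libraries in 2 groups these distances mostly restate the size of the difference between the lines.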

How the data were processed

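RNA was purified with a Nucleospin kit and sequenced as TruSeq RNA libraries, per the labels' protocols. The authors deposited raw read counts per Ensembl gene, 4 libraries in 1 table. HTSeq, TopHat, Bowtie2, cutadapt 1.7, limma and FastQC are listed, with builds mm10 and GRCm38, per the submitters' processing notes. For the order of use, strandedness and gene models, the answer is not given in the sources used here. Each gene in the table has at least 4 counts in all. Of 16591 identifiers, 16407 matched GENCODE M21 (GRCm38), which gave symbols, positions and exonic lengths.

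The model for the counts was edgeR 4.0.16's quasi-likelihood fit (R 4.3.3), with TMM factors, a model of the line alone and filterByExpr (10 counts per library, 15 in all). P-values were adjusted by Benjamini-Hochberg over all 11945 tested genes and called under 0.05. Standard errors come from the F statistic. Log2 CPM for profile distances used a prior count of 2. Promoters are RefSeq windows. DESeq2 1.42.0 and limma-voom (limma 3.58.1) were alternatives. On simulated counts for this comparison over 11945 genes, 27 of 50 genes changed 1.25-fold, 43 of 50 changed 1.5-fold and all 50 changed 2-fold were recovered, with 7 false calls. The changed genes were drawn only from those above a set CPM, and every gene was given the same common spread. Recovery at lower levels, such as those of Znrd1as and Krt18, was therefore not measured. The 7 genes, the lists and the rule for named genes were chosen with earlier results of these data known. That rule takes the 7 genes, their nearest tested neighbour on each side, called neighbours, called genes of each list or else those of smallest p, and the 3 nearest named profiles. Some results that this rule or the lists would name are not reported here. Other genes, such as the class I, Trim, Scn and Padi genes and Tnrc18, were named after their values were seen.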

Additional observations from a re-analysis of the deposited data

How the results depend on the processing

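All 7 genes kept negative log2 changes under the 11 alternatives, and the median over them stayed between -1.38 and -1.34. The genes were chosen for lower counts in these same libraries, so the kept sign is no support for the differences. The widest ranges were -1.21 to -0.93 for Gfra1 and -2.60 to -2.33 for Lhfpl4. The count of called genes, 445 of 11945 (263 higher and 182 lower), was 208 with DESeq2 (122 higher and 86 lower) and 270 to 1381 when 1 library was left out, and 440, 425, 441 and 487 with DESeq2's size factors, library size only, limma-voom and no filter. Called neighbours numbered 5, but 2 of 93 tested within 0.5 Mb, 12 of 271 within 2 Mb and 5 to 14 with 1 library left out. With no filter the added neighbour was Gm11772. Called relatives numbered 1, but 0 with DESeq2 and 0 to 9 with 1 library left out. With the replicate number as a block, 595 of all tested genes (4.98%), 9 of 160 neighbours (5.62%) and 2 of 78 relatives (2.56%) were called. The relatives were Gfra2 (adjusted p = 0.0478, edgeR) and Kif3a. The 9 neighbours were 7 of 55 around Bahcc1 (12.7%) and 2 of 105 around the other genes (1.9%), among them Znrd1as (adjusted p = 0.0418, edgeR). The numbers do not pair the libraries: the deviations of replicate 1 from the line mean correlated at -0.02 over 11945 genes, so the block is given only as an alternative. With 2 libraries per line, the estimate of spread rests on few degrees of freedom, and counts as low as those of Znrd1as or of Lhfpl4 in resistant cells leave wide standard errors (0.53 and 0.26).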

Other observations

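The head-to-head pairs at Bahcc1 and Znrd1 were noticed after their values were seen, and the same arrangement was then counted over all tested genes. Of the 7 genes, 2 have an annotated gene on the opposite strand that starts within 2000 bases and runs away from them, and both of these partners, 2900052L18Rik and Znrd1as, had both resistant libraries below both sensitive libraries. Among the 173 other genes called lower, with the 7 left out, 10 had a tested partner in this arrangement. Of those 10 partners, 4 had both resistant libraries below both sensitive libraries (40.0%), 0 were called lower in edgeR, and the median log2 change was -0.12. Over all tested genes with such a partner the same held for 296 of 1349 partners (21.9%). Among 261 genes called higher, 10 had a partner, of which 2 were called higher and 0 lower. Partners were looked up from each gene in turn, so a pair can enter from both ends. These are therefore not counts of separate pairs.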
